A study of Oryza sativa Japonica Group with 8 samples.

Results

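The short-arm ends of rice chromosomes 11 and 12 carry a duplicated block, and the levels of its loci were followed here in 8 RNA libraries of the japonica subspecies (Oryza sativa L. ssp. Japonica). Members were all loci of the deposited table on either chromosome that ended at or before position 2500000 on MSU Release 7 coordinates. There were 610 of them among 31187 loci (1.96%), 305 in the chromosome 11 block and 305 in the chromosome 12 block. The remaining 1649 loci of chromosome 11 and 1580 loci of chromosome 12 were the loci they were set against, and the share over all 31187 loci is given beside counts of members as the whole-table share, or all loci.

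The libraries came from greenhouse plants: open flowers on the day of flowering and flower buds before it, flag leaves after and before flowering, roots labelled after and before flowering, and mature seeds and milk grains. Each group held 1 library, so the spread between replicates is not known for any value and no p-value was computed. Leaf and root libraries are mixtures of several stages, per the labels' protocols. All plants were of this cultivated subspecies, and the labels give no treatment, allele or cultivar. In whole organs, fewer cells of a type and less RNA per cell cannot be told apart. Levels are FPKM, a count of sequenced fragments scaled to transcript length and to library size, as the authors deposited them, and the read depth is unknown. Summed FPKM lay between 569819 and 611306 per library. The library labelled roots after flowering went against its label: set against leaves after flowering, 0 of 244 members with at least 5 FPKM in either were 4-fold apart, while 85 of 289 were so when it was set against roots before flowering. Whole-table shares were much the same, at 0.318% for leaves after flowering and 30.0% for roots before flowering. Organ groups and profile comparisons were therefore made over the other 7 libraries, and its values are given beside them.

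Grass genomes descend from an ancestor whose whole genome was doubled, and most of the second copies were lost afterwards. The ends of chromosomes 11 and 12 kept an unusually alike pair of segments. They were first described as a recent segmental duplication, and later work described an old pair kept alike by gene conversion, in which sequence is copied from one arm to the other. Where both copies of a gene persist, they may keep the same organs of expression, share them out, or differ in level. Gene names are not used here, so loci are given by identifier and position, and their functions are not stated. Near-identical copies also share reads; how the authors' tools assigned such reads is not given in the sources used here.

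The blocks were alike in content. The chromosome 11 block held 230 distinct spans with a median length of 4059 bp, and the chromosome 12 block held 244 with a median of 3578 bp. Of the chromosome 11 members 120 (39.3%) shared a span with other loci, as did 96 (31.5%) of the chromosome 12 members. Such a span holds the locus without giving its own limits, and the strand is not recorded in these non-directional libraries, so reads of overlapping loci cannot be told apart. At the inner edge, XLOC_014595 (chromosome 11, 2490666 to 2491890) was the last member and had 65.1 FPKM in roots before flowering. The first locus outside, XLOC_012434 (chromosome 11, within a span of 3 loci at 2500171 to 2505233), had 15.8 FPKM in flowers and 14.6 in flower buds. On chromosome 12 the last member was XLOC_019563 (2467988 to 2469717), whose level was 566 FPKM in roots before flowering, and the first locus outside was XLOC_017476 (2506937 to 2507510), with 8.20 FPKM in milk grains.

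Members were more broadly expressed than the rest of chromosome 11, and less clearly so than the rest of chromosome 12. In the chromosome 11 block 129 of 305 loci (42.3%) had at least 1 FPKM in all 7 libraries, against 514 of 1649 (31.2%) in the rest of chromosome 11. In the chromosome 12 block 127 of 305 (41.6%) did so, against 579 of 1580 (36.6%) in the rest of chromosome 12. Over the whole table the share was 42.6%, so the blocks were close to the whole table and the rest of both chromosomes lay below. Median levels of the blocks were above those of the rest of their chromosomes and mostly below the whole-table median, which was 4.52 in flowers and 4.52 in flower buds. The chromosome 11 block had a median of 3.96 FPKM in flowers and 3.94 in flower buds, against 2.60 in flowers and 2.45 in flower buds for the rest of chromosome 11. The chromosome 12 block had 3.98 in flowers and 3.96 in flower buds, against 3.63 in flowers and 3.38 in flower buds for the rest of chromosome 12. In each of the 8 libraries the median of either block was above that of the rest of its own chromosome. The lowest medians were in milk grains, at 1.44 FPKM in the chromosome 11 block and 1.82 in the chromosome 12 block. A level of 100 FPKM in any of the 7 libraries was reached by 32 of 610 members (5.25%), against 6.66% in the rest of both chromosomes and 9.13% in the whole table. The chromosome 11 block took 0.614% to 0.954% of the summed FPKM of a library, and the chromosome 12 block 0.618% to 0.859%.

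Because no sequence of this genome build was at hand, partners on the 2 arms were proposed from position alone. Spans of both blocks were chained in order from the short-arm end, allowing lengths up to a ratio of 5 to 4 and charging for unequal spacing, and no expression value was used. The chain held 84 candidate pairs, which took in 36.5% of the chromosome 11 spans and 34.4% of the chromosome 12 spans; the FPKM of loci that share a span were summed. Starts within a pair differed by between -78.2 and 138.9 kb (chromosome 11 minus chromosome 12). A chain can always be found between long lists of spans. The same rule gave 33 to 77 pairs between the chromosome 11 block and the first 2.5 Mb of chromosomes 1 to 10, and 47 between the next 2.5 Mb of chromosomes 11 and 12. The number of pairs is therefore no evidence of partnership, and a share of the 84 may not be partners. Locus identifiers gave a property that the chain did not use: on each chromosome they run along the arm in 3 separate series, whose meaning the file does not state. Both members were of the same series in 56 of 70 candidate pairs of 1-locus spans, against 46.3% of all other combinations of such spans.

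Candidate partners had like profiles across organs. The Pearson r of log2(FPKM + 1) over 7 libraries, which share a library and its depth at each point, had a median of 0.83 over the 84 pairs, with the middle of the distribution between 0.26 and 0.96 (quartiles). It was at least 0.9 in 35 pairs (41.7%), where 1.95% of the 55806 other combinations of a chromosome 11 and a chromosome 12 span reached that value. It was below 0 in 14 pairs (16.7%), against 47.0% of the other combinations, whose median was 0.05. In the chains with the ends of chromosomes 1 to 10 the median r lay between -0.14 and 0.22 and the share at 0.9 or above between 0% and 5.19%. In the chain of the next 2.5 Mb of chromosomes 11 and 12 the median was 0.24, and 0 of 47 pairs reached 0.9. Both copies had their highest value in the same library in 44 pairs (52.4%), against 15.2% of other combinations. Among spans that reached 10 FPKM, both members of 17 of 44 candidate pairs were each other's closest match in profile, against 0.272% of the other combinations. Of the 1-locus pairs with r of at least 0.9, 31 of 32 were of the same identifier series, and of those below 0.9, 25 of 38.

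**Figure D1:**
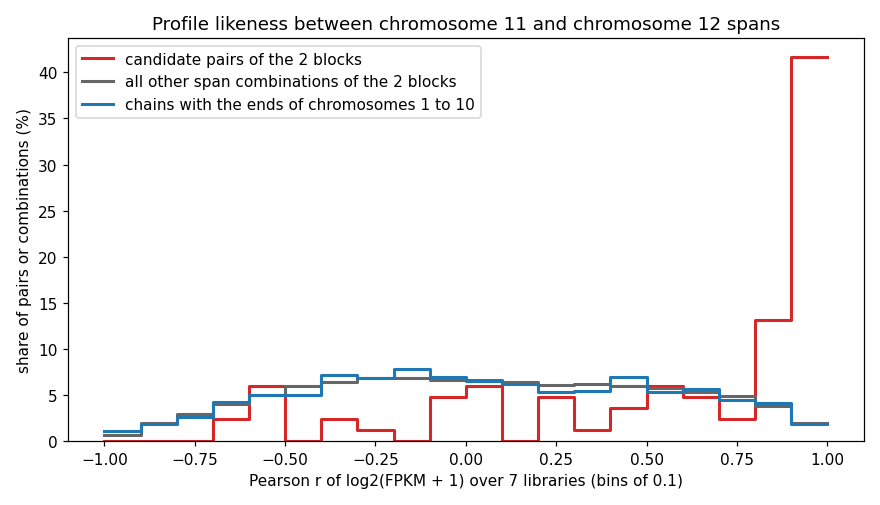
Share of candidate pairs (84), of all other span combinations of the 2 blocks and of chains with the ends of chromosomes 1 to 10 in each bin of Pearson r of log2(FPKM + 1) over 7 libraries. The candidate pairs pile up at the right end, with 41.7% at 0.9 or above against 1.95% of the other combinations.

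**Figure D2:**
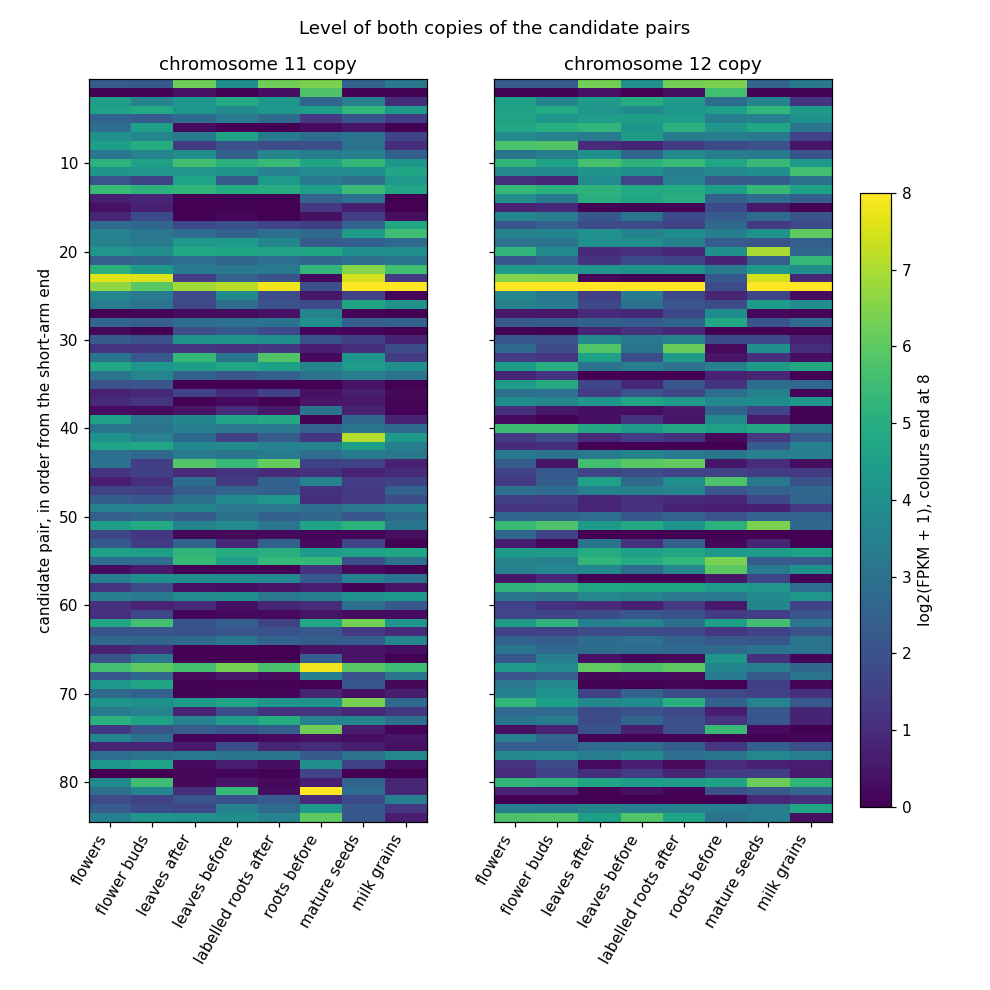
Level of the 84 candidate pairs as log2(FPKM + 1), with the chromosome 11 copy on the left and the chromosome 12 copy on the right, pairs running down from the short-arm end and the 8 libraries across. Matching bright and dark cells show organ patterns shared by both copies; the yellow row near pair 24 is the highest pair.

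The levels of the copies were often close, without a lean to either arm. The median over libraries of log2((chromosome 11 + 1)/(chromosome 12 + 1)) had a median of 0.04 over the 84 pairs. It was within 2-fold in 50 pairs and at least 4-fold in 16, of which 7 favoured the chromosome 11 copy and 9 the chromosome 12 copy. These counts had no filter on level, so pairs low in both copies count as close, and they were not made over other combinations. Among pairs with at least 5 FPKM in either copy, 44.2% to 56.7% were within 2-fold in a given library of the 7. Other combinations were so in 15.1% to 22.1% of cases. The chromosome 11 copy was the higher one in all 7 libraries in 14 pairs and the chromosome 12 copy in 18, and the direction varied between libraries in 52. Among pairs with at least 5 FPKM in either copy, 26.7% (16 of 60, flower buds) to 37.5% (18 of 48, milk grains) were at least 4-fold apart in a given library. Other combinations of the 2 blocks were that far apart in 55.7% of cases in flowers, 53.6% in flower buds, 66.9% in leaves after and 63.6% in leaves before flowering, 63.7% in roots before flowering, 61.0% in mature seeds and 67.1% in milk grains. In the library labelled roots after flowering it was 15 of 49 pairs (30.6%), against 66.1% of other combinations. The median log2 ratio of the pairs lay between -0.08 and 0.04 over the 7 libraries. In all, 36 pairs were 4-fold apart in at least 1 of the 7 libraries, 4 of them in all 7, and 48 in none. A library counted only where either copy had at least 5 FPKM, which 48 to 62 of the 84 pairs had in a given library. The pairs apart in none therefore include some too low to be called. These counts over libraries were not made for other combinations of spans.

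Likeness was highest at the outer end. Cut into equal lots in order from the short-arm end, a division made after the values were seen, the first 28 pairs (chromosome 11 from 14243 to 763336, chromosome 12 from 12805 to 806097) had a median r of 0.95 and 18 pairs at 0.9 or above. The middle 28 had a median of 0.79 with 9 such pairs, and the last 28 a median of 0.62 with 8. The median size of the log2 ratio between copies was 0.30 in the first 28, 1.01 in the middle and 0.96 in the last. The spans' lengths differed to a similar degree in each lot, with a median log2 length ratio of 0.06, 0.06 and 0.07 in size. The chain admitted only spans of like length. These values therefore cannot show whether true partners are equally frequent in each lot, which was not tested. Of the 84 pairs, 8 stayed within a ratio of 5 to 4 in all 7 libraries, and 7 of these were among the first 28. These ratios had 1 FPKM added to both copies and no filter on level. A library low in both copies therefore counts as close whatever its ratio. The count was not made over other combinations of spans. Whether reads shared between near-identical copies add to the likeness at the outer end was not tested.

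**Figure D3:**
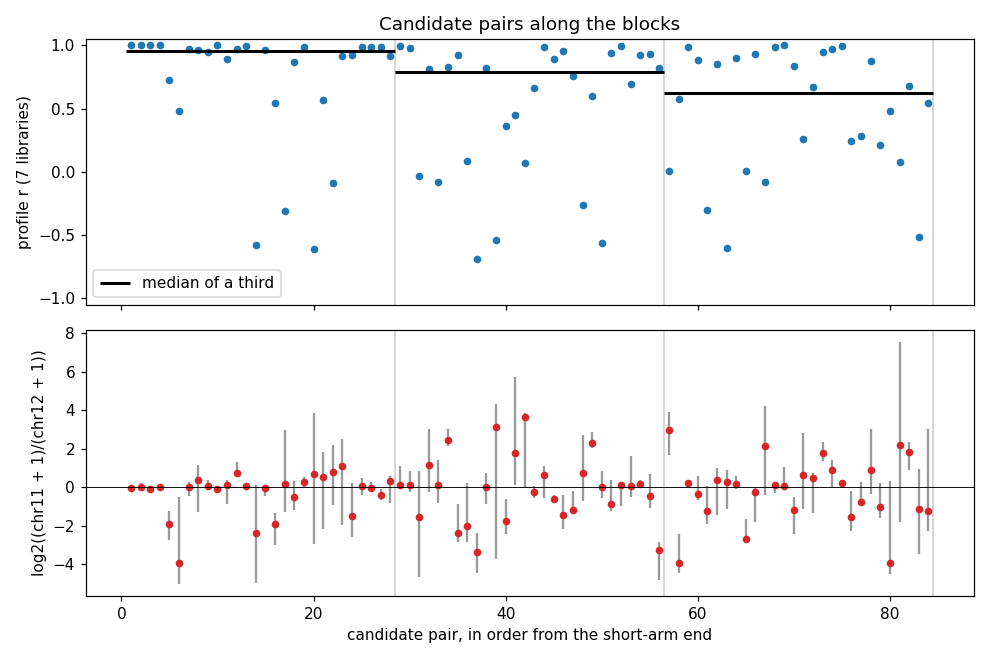
Candidate pairs in order from the short-arm end: profile r over 7 libraries (top, black bars are the medians of 0.95, 0.79 and 0.62 for 28 pairs each) and log2 ratio of the chromosome 11 over the chromosome 12 copy (bottom, points are medians and grey lines the range over 7 libraries). Points near 1 and near 0 are densest at the left.

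Several pairs near the outer end were nearly equal, but not all of them: pair 5 had a median log2 ratio of -1.89 and pair 6 of -3.94, and they were 4-fold apart in 3 and 5 of the 7 libraries. Pair 1 (XLOC_014363, chromosome 11, 14243 to 15796; XLOC_019341, chromosome 12, 12805 to 14099) was a leaf and root pair. Its chromosome 11 copy had 4.10 FPKM in flowers and 3.85 in flower buds, 74.9 in leaves after and 14.7 in leaves before flowering, 75.4 for the library labelled roots after flowering against 85.0 for roots before it, and 4.83 in mature seeds and 8.19 in milk grains. The chromosome 12 copy had 4.08 and 4.13 FPKM in flowers and flower buds, 78.7 and 15.6 in leaves after and before flowering, 79.7 for the library labelled roots after flowering against 84.2 for roots before it, and 5.05 and 8.41 in mature seeds and milk grains. Both copies were thus high in roots before flowering and in later leaves, and higher in leaves after than before flowering by 2.27 (chromosome 11) and 2.26 (chromosome 12) on the log2 scale. Pair 2 (XLOC_014364, 27027 to 28636; XLOC_019342, 25537 to 27007) was root-enriched in both copies, with 54.0 FPKM on chromosome 11 and 46.5 on chromosome 12 in roots before flowering and at most 0.287 in the other 7 libraries. Pair 10 (XLOC_012230, 234171 to 244462; XLOC_017280, 249562 to 259877) was broad, from 17.8 in milk grains to 47.4 FPKM in leaves after flowering on chromosome 11 and from 19.0 to 49.5 on chromosome 12. The chromosome 12 copy of pair 10 was the higher one in each of the 7 libraries, with log2 ratios of chromosome 11 over 12 between -0.09 and -0.06, and at -0.05 in the library labelled roots after flowering. Pair 13 (XLOC_014385, 295652 to 301609; XLOC_019366, 312932 to 318602) was as even, at 22.1 to 43.0 FPKM on chromosome 11 and 21.3 to 39.9 on chromosome 12, with the chromosome 11 copy higher in all 7 libraries by 0.05 to 0.14. Pairs 1, 2 and 10 had the highest r among the 44 pairs in which both copies reached 10 FPKM, each rounding to 1.00.

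Seed and flower levels stood out around 0.7 Mb from the end. Pair 24 had the highest mean level (XLOC_012281, chromosome 11, 696818 to 703960; XLOC_017328 with XLOC_021423, chromosome 12, 732977 to 739384). The chromosome 11 copy had 102 FPKM in flowers and 61.5 in flower buds, 115 in leaves after and 139.8 in leaves before flowering, 229 for the library labelled roots after flowering against 2.84 for roots before it, and 420.0 in mature seeds and 1209.7 in milk grains. The chromosome 12 copy had 467 and 369 FPKM in flowers and flower buds, 321 and 519 in leaves after and before flowering, 574 for the library labelled roots after flowering against 2.64 for roots before it, and 973 and 1028 in mature seeds and milk grains. Both copies were lowest in roots before flowering and highest in milk grains, but the chromosome 11 copy was seed-enriched by the rule below and the chromosome 12 copy, with its higher flower and leaf levels, was not. The neighbouring pair 23 (XLOC_012280, 693339 to 694261; XLOC_017327, 727799 to 728701) was high in flowers and mature seeds in both copies. XLOC_012280 had 193 FPKM in flowers, 192 in flower buds, 173 in mature seeds and 1.56 in milk grains, and XLOC_017327 had 90.9, 86.7, 176 and 0.814 FPKM in the same libraries. Elsewhere neither copy exceeded 4.74 FPKM.

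**Figure D4:**
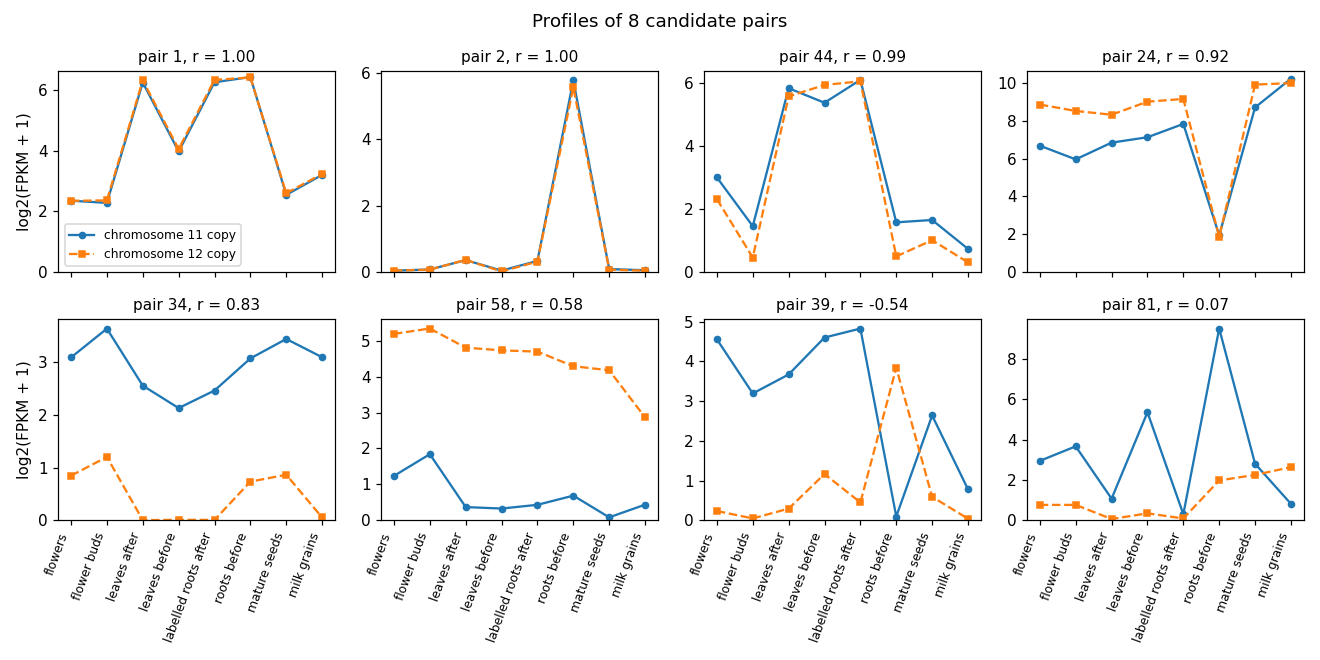
Profiles of 8 candidate pairs over the 8 libraries as log2(FPKM + 1), each panel on its own scale, with the chromosome 11 copy as a solid and the chromosome 12 copy as a dashed line. Pairs 1 and 2 overlie closely, and pair 44 shares its pattern with log2 ratios of -0.57 to 1.08 over 7 libraries. Pairs 34 and 58 keep apart in every library, and pairs 39 and 81 differ in pattern.

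In other pairs the copies lay apart. The 4 pairs with the highest ratio for chromosome 11 had medians from 2.43 to 3.62 on the log2 scale. In pair 34 (XLOC_014466, 1078103 to 1082478; XLOC_019421, 946072 to 950327) the chromosome 11 copy had 3.37 to 11.4 FPKM over the 8 libraries and the chromosome 12 copy 0.00158 to 1.30, so the ranges did not overlap. Pair 57 (XLOC_012358, 1603345 to 1609154; XLOC_019478, 1541663 to 1546762) had 3.57 to 14.9 FPKM on chromosome 11 and 0.0168 to 2.22 on chromosome 12. In pair 42 (XLOC_014485, 1329409 to 1333415; XLOC_019451, 1242090 to 1246665) the chromosome 11 copy had 9.99 to 26.3 FPKM, while the chromosome 12 copy had 10.2 in milk grains, 4.06 in mature seeds and at most 1.09 elsewhere, with a listed 0 in both leaf libraries. Pair 39 (XLOC_012335, 1280003 to 1281762; XLOC_017363, 1146994 to 1148742) had opposite patterns: 22.5 FPKM in flowers, 23.2 in earlier leaves and 0.0668 in roots before flowering on chromosome 11, against 0.175, 1.24 and 13.3 FPKM on chromosome 12. Its r was -0.54.

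The 4 pairs with the highest ratio for chromosome 12 had medians from -3.96 to -3.37. Pair 58 (XLOC_014513, 1609279 to 1610328; XLOC_019479, 1550331 to 1551275) had 0.0577 to 2.58 FPKM on chromosome 11 and 6.29 to 39.6 on chromosome 12, and was at least 4-fold apart in all 7 libraries. Pair 37 (XLOC_014470, 1136049 to 1141670; XLOC_019428 with XLOC_021431, 1005446 to 1011269) was also apart in all 7, with 0.0360 to 1.36 FPKM against 11.4 to 24.4. In pairs 6 and 80 the chromosome 11 copy was a flower locus and the chromosome 12 copy was broad. XLOC_016513 (184128 to 184817) of pair 6 had 6.27 FPKM in flowers and 22.0 in flower buds and at most 0.387 elsewhere, against 7.75 to 37.3 FPKM over all 8 libraries for XLOC_019349 (156367 to 157071). XLOC_014582 (2343568 to 2348328) of pair 80 had 13.3 FPKM in flowers and 44.5 in flower buds and at most 4.96 elsewhere, against 19.8 to 73.2 for XLOC_019545 (2245321 to 2249876). Among pairs with 10 FPKM in both copies, the lowest r were those of pair 20 (-0.61), pair 39 and pair 83 (-0.51). In pair 20 the spans with XLOC_012259 and XLOC_014410 (530916 to 532619) had 14.4 to 26.7 FPKM in all libraries, against 0.912 to 124 FPKM for XLOC_019390 (606569 to 608215), which was highest in mature seeds. With no sequence at hand, such pairs may be diverged copies or spans that are no partners, and the 2 cannot be told apart.

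Organ-enriched members made up a share near or below that of the whole table. A locus was counted as enriched in an organ when its higher library reached 10 FPKM and, with 1 FPKM added to both, exceeded every library of the remaining organs 5-fold or more. Of the 152 chromosome 11 members that reached 10 FPKM, 27 (17.8%) were enriched in an organ, and of the 146 such chromosome 12 members 18 (12.3%), against 18.8% over the whole table and 23.9% in the rest of both chromosomes. In the flower 8 chromosome 11 and 4 chromosome 12 members were enriched (all loci 4.59%), in the leaf 1 and 4 (3.25%), in the root 12 and 6 (5.48%) and in the seed 6 and 4 (5.50%). For both blocks together these were 4.03%, 1.68%, 6.04% and 3.36% of the members that reached 10 FPKM, against 6.12%, 4.55%, 6.05% and 7.21% in the rest of both chromosomes. The Wilson intervals over loci, which are not replicates, were 0.719% to 3.87% for the leaf and 1.83% to 6.07% for the seed, and both include the whole-table share but not that of the rest of both chromosomes.

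**Figure D5:**
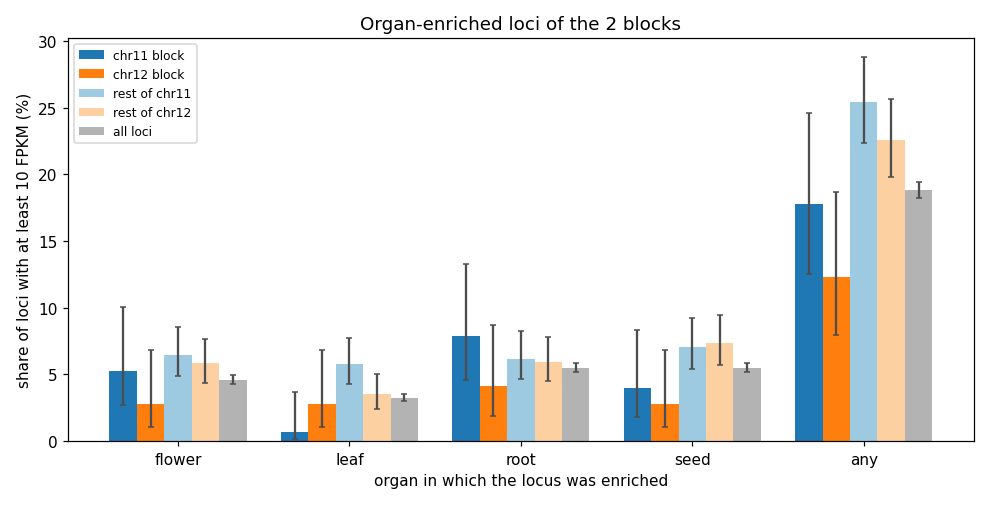
Share of loci with at least 10 FPKM that were enriched in each organ, for the blocks, the rest of each chromosome and all loci. Error bars are 95% Wilson intervals over loci; the bars of any organ stand at 17.8% and 12.3% for the blocks, against 25.4% and 22.6% for the rest of chromosomes 11 and 12.

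Of the 84 pairs, 5 had both copies enriched in the same organ, 0 in different organs, 6 had the chromosome 11 copy alone and 5 the chromosome 12 copy alone. Of the paired spans that reached 10 FPKM, 11 of 56 on chromosome 11 and 10 of 59 on chromosome 12 were enriched. The same counts were not made over other combinations of spans, so they are not read as a trait of the pairs. Enriched in the same organ in both copies were pairs 2, 27 and 74 in the root, pair 44 in the leaf and pair 75 in the flower. Pair 27 had 11.1 FPKM (XLOC_014433, 749334 to 751659) and 13.7 FPKM (XLOC_019403, 788941 to 791422) in roots before flowering. Pair 74 had 76.1 FPKM (XLOC_012398, 2056278 to 2059255) and 40.8 FPKM (XLOC_017439, 1986250 to 1989234) there. In pair 44, XLOC_014491 (1390584 to 1391877) had 56.5 FPKM in leaves after and 40.7 in leaves before flowering, and XLOC_019456 (1302347 to 1303404) had 47.0 and 60.8. Each was the highest leaf-enriched member of its own block, and XLOC_014491 was the only such member on chromosome 11. In pair 75, next to pair 74 on both arms, XLOC_014561 (2059391 to 2063689) had 11.3 FPKM in flowers and 6.51 in flower buds, and XLOC_019524 (1989583 to 1994270) had 10.1 and 5.11.

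Among loci with a position of their own, the members with the highest levels included some with like organs of highest level on both arms that were no candidate pair. XLOC_012283 (chromosome 11, 715291 to 726974) was the highest of these, at 1078 FPKM in flowers and 1235 in flower buds, 568 in leaves after and 389 in leaves before flowering, 703 for the library labelled roots after flowering against 1.26 for roots before it, and 68.9 in mature seeds and 15.9 in milk grains. Root-enriched members were spread along both blocks, and the highest of each block lay near its inner edge. XLOC_014586 (chromosome 11, 2390445 to 2392366) had 0.230 FPKM in the leaf-like library labelled roots after flowering, against 727 FPKM in roots before flowering, and 40.0 in earlier leaves. XLOC_019563, the last chromosome 12 member, had 0.833, 566 and 12.1 FPKM in the same libraries. The chromosome 12 span nearest in profile to XLOC_014586 was XLOC_019563 (r = 0.96), but that of XLOC_019563 on chromosome 11 was XLOC_014543 (r = 1.00). XLOC_014543 was a broad locus, with 227 FPKM in roots before flowering and 44.4 (milk grains) to 81.7 FPKM (earlier leaves) elsewhere. Its start differed from that of XLOC_019563 by -599 kb (chromosome 11 minus chromosome 12). The chain had paired XLOC_014586 with XLOC_019551 instead (pair 81, 2.93 FPKM in roots before flowering, r = 0.07). Nearby were the milk grain loci XLOC_012414 (chromosome 11, 2276386 to 2277132) and XLOC_017464 (chromosome 12, 2312449 to 2313272). XLOC_012414 had 17.4 FPKM in mature seeds and 400.2 in milk grains, and XLOC_017464 had 25.3 and 512. The highest flower-enriched members were XLOC_012266 (chromosome 11, within a span of 17 loci at 579794 to 691777), with 43.1 FPKM in flowers and 205 in flower buds, and XLOC_017313 (chromosome 12, 623336 to 626113), with 87.5 and 389. XLOC_017313 also had 32.1 FPKM in roots before flowering. Its nearest chromosome 11 span in profile was instead XLOC_014538 (r = 0.99), whose start differed by 1190 kb (chromosome 11 minus chromosome 12). The other loci among the 5 highest of each block with a position of their own were XLOC_014480 (chromosome 11, 1285391 to 1286291; 78.6 to 269.5 FPKM), XLOC_019543 (chromosome 12, 2215861 to 2219491; 829.5 FPKM in mature seeds) and XLOC_017467 (chromosome 12, 2338052 to 2339171; 315 FPKM in roots before flowering).

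Stages of the same organ were compared by the size of log2((later + 1)/(earlier + 1)), called at 2 or more where the higher library had at least 5 FPKM. In open flowers against buds, 2 of 292 members were higher (0.685%; all loci 0.730%) and 2 lower (0.685%; 0.436%), and with either scaling given below 1 was higher and 2 lower. The extreme ones were XLOC_019361 (chromosome 12, 273545 to 282070), with 7.81 FPKM in flowers and 0.852 in flower buds, and XLOC_012266, given above. In leaves after against before flowering, 12 of 268 members were higher (4.48%; all loci 3.88%) and 2 lower (0.746%; 2.5%), but 9 were lower with a pseudocount of 0.1. XLOC_014430 (chromosome 11, 728992 to 732978) had 159 FPKM in leaves after and 7.47 in leaves before flowering, and the 2 lower members were the root loci XLOC_014586 and XLOC_019563, at -4.29 and -2.19 on the log2 scale.

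In mature seeds against milk grains, 51 of 265 members were higher (19.2%; all loci 18.6%) and 11 lower (4.15%; 7.38%). In the deposited values the median log2 ratio of the tested members was 0.49. Scaling by the upper quartile brought it to -0.01, with 42 members higher and 22 lower, and scaling by the median of ratios to 0.14. XLOC_017327 of pair 23 had 176 FPKM in mature seeds and 0.814 in milk grains, a log2 ratio of 6.61, and XLOC_012414 had a log2 ratio of -4.45. In the pair of libraries labelled roots, 36 of 289 members were higher (12.5%; all loci 14.1%) and 49 lower (17.0%; 16.0%) in the later, leaf-like library. Its extremes were XLOC_012283 at 8.28 and XLOC_014586 at -9.21 on the log2 scale. The median over the tested members was 0.28 as deposited and -0.13 with the median of ratios. In the rest of both chromosomes 18.0% were higher and 13.1% lower in that comparison, 264 of 1259 were higher and 110 (8.74%) lower in mature seeds, and 5.48% higher and 2.78% lower in leaves after flowering.

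The stage rule was applied to both copies of each candidate pair. In leaves 5 pairs had a copy called, and 3 of them (pairs 1, 12 and 32) were higher after flowering in both copies. In seeds 15 pairs had a copy called, and 4 (pairs 3, 23, 51 and 62) were higher in mature seeds in both. In the libraries labelled roots it was 23 pairs, of which 7 were called in both copies in the same direction and 2 (pairs 39 and 67) in opposite directions. In flowers 0 pairs had a called copy. Where 1 copy alone was called, the other had the same sign in 2 of 2 pairs in leaves and in 9 of 11 in seeds. In the libraries labelled roots 7 pairs had the chromosome 11 copy alone called and 7 the chromosome 12 copy alone. The sign was shared in 11 of these. Among all tested members 51 were higher and 11 lower in mature seeds, with a median log2 ratio of 0.49. A like sign in seeds can therefore arise without partnership. None of these pair counts was set beside other combinations of spans.

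Levels were uneven along each block. In windows of 250 kb from the short-arm end, the median of the members' highest FPKM ranged between 4.06 (the fifth window) and 16.0 (the tenth) on chromosome 11, and between 5.33 (the tenth) and 18.0 (the first) on chromosome 12. The summed FPKM of flower buds was highest in the third window of chromosome 11, at 2164, and in the fourth of chromosome 12, at 1723. Those windows hold XLOC_012283 and the span of XLOC_017329 with XLOC_017330 (chromosome 12, 745642 to 762534), which had 1336 FPKM in flower buds.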

How the data were processed

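One table of FPKM values, deposited by the authors, gave 1 value per locus for each of 8 paired-end libraries, made with a TruSeq kit and sequenced for 100 cycles per the labels' protocols. Per the submitters' processing notes the tools were TopHat, Cufflinks and Cuffdiff, with no version or setting stated there. Positions are on MSU Release 7, per the file headers. Every locus exceeds 1 FPKM in some library. Depth is unknown, so no counting interval is given. Members, rules and tests were chosen with earlier results of these data known. Samples were grouped by tissue label. The chain scored a match as 1 minus the size of the log2 length ratio over that of a ratio of 5 to 4, and charged 0.25 of log2(1 + difference in spacing/2 kb), at most 1, for each step. The scripts were tested on simulated data. Loci were named by rule: the 5 highest of each block with a position of their own, the highest enriched in each organ, the extremes of each stage comparison, and the pairs with the highest level, extreme ratios and extreme r; others were named after their values were seen. Python 3.11.15, pandas 2.3.3, NumPy 2.4.6, SciPy 1.17.1 and Matplotlib 3.10.9 were used. Alternatives were the block end, pseudocount, scaling, filters, fold and chain settings. Sequences and gene names were not used here.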

Additional observations from a re-analysis of the deposited data

Results flagged for a closer look

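Of the members, 1 passed the 4-fold rule with one sign in leaves and the other sign in the libraries labelled roots. XLOC_017423 (chromosome 12, 1851224 to 1852099) had 9.45 FPKM in leaves after and 1.41 in leaves before flowering, a log2 ratio of 2.11. The library labelled roots after flowering held 6.05 FPKM of it, against 39.7 FPKM for roots before flowering, a log2 ratio of -2.53. No test of the difference between these ratios was possible with 1 library per group, so the difference was not tested, and the library labelled roots after flowering had a leaf-like profile.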

How the results depend on the processing

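Of 97 recomputed values of 24 results, 80 stayed within 1.5 times the count or within their interval over loci, and the others follow. A change of sign was looked for only in the median r of all pairs and the median log2 ratio between copies. With 10 times in place of 5 times, 14 chromosome 11 and 9 chromosome 12 members were organ-enriched. At 2-fold, 12 members were higher and 12 lower in flowers, 40 higher and 27 lower in leaves after flowering, and 99 higher and 41 lower in mature seeds. In the library labelled roots after flowering 75 were then higher. The 70 lower there stayed within 1.5 times the count, but the balance turned from 36 higher and 49 lower. With a pseudocount of 0.1, 9 members were lower in leaves after flowering. With median-of-ratios scaling 1 member was higher in flowers, and with upper-quartile scaling 1 was higher in flowers and 22 were lower in mature seeds. With a length ratio of up to 1.1 the chain held 54 pairs. Among pairs with both copies at 10 FPKM the median r was 0.93, with 61.4% at 0.9 or above, and Spearman's rho reached 0.9 in 25.0% of the 84 pairs. The cause of these shifts was not tested beyond what a stricter or looser rule brings by its construction. The first 28 pairs, or the corresponding lot, had the highest median r and the smallest ratio between copies in each of 3 other chains, at 0.90 to 0.95 and 0.12 to 0.40. Spearman's rho, the division of the pairs into lots, their recomputation in other chains and scaling of the levels were added after the data were seen. No paired analysis was possible because each group held 1 library, and for the same reason no library could be left out of a group.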

Other observations

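Partners were also sought from expression alone, after the values above were seen. Among 134 chromosome 11 and 140 chromosome 12 spans that reached 10 FPKM, 68 combinations were each other's best match by r over 7 libraries. Their starts lay within the offsets of the candidate pairs (-78.2 to 138.9 kb) in 36 cases (52.9%), as did 8.64% of all 18760 combinations. Of the 36, 17 were themselves candidate pairs, which lie within that range by construction. Of the 44 candidate pairs in which both copies reached 10 FPKM, 17 (38.6%) were such a best match, against 0.272% of the combinations that were no candidate pair. Of the 51 best matches that were no candidate pair, 19 lay within the offsets. In 14 of these 19 the spans differed in length by more than a ratio of 5 to 4.

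Profiles of these could be alike while levels differed. XLOC_012283 matched the span of XLOC_017329 with XLOC_017330 (chromosome 12, 745642 to 762534; r = 0.99), which had 1167 FPKM in flowers and 1336 in flower buds, 716 in leaves after and 522 in leaves before flowering, 774 for the library labelled roots after flowering against 2.55 for roots before it, and 157 in mature seeds and 63.6 in milk grains. XLOC_012283 had 68.9 in mature seeds and 15.9 in milk grains. These matched spans, which are no candidate pair, thus lay about 4-fold apart in the deposited values for milk grains. XLOC_014380 (chromosome 11, 256826 to 262109) matched XLOC_019361: it had 12.1 FPKM in flowers and 2.18 in flower buds, 19.1 in leaves after and 41.5 in leaves before flowering, with 0.517 FPKM for roots before flowering, against 7.81, 0.852, 14.3, 27.0 and 0.0887 FPKM for the chromosome 12 locus. XLOC_014377 (chromosome 11, 245187 to 246111) and XLOC_019358 (chromosome 12, 260310 to 261030) were both root-enriched, at 16.4 and 14.4 FPKM in roots before flowering. The milk grain loci XLOC_012414 and XLOC_017464 matched each other with r = 0.98. XLOC_012389 (chromosome 11, 1989041 to 1995087), which the chain had put in pair 71 with r = 0.26, matched XLOC_017428 (chromosome 12, 1888836 to 1894920) with r = 1.00. XLOC_012389 had 81.5 FPKM in mature seeds and 5.62 in milk grains, and XLOC_017428 had 65.2 and 4.93. These matches were chosen by the profile, so their r is a description.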
